A study of Homo sapiens with 6 samples.

Results

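The genes described here encode the enzymes that build mucin-type O-glycans, sugar chains attached to serine and threonine residues of secreted and membrane proteins, and they were followed in HT1080 cells with and without GPR56. HT1080 is an established human fibrosarcoma cell line. GPR56 (approved symbol ADGRG1) is an adhesion G protein-coupled receptor. RNA was sequenced from 3 GPR56 knockout (KO) libraries, from cells edited with CRISPR-Cas9, and from 3 wild-type (WT) libraries. Both genotypes were grown in serum-supplemented DMEM, and the sample descriptions of both carry the name of the solvent DMSO with no dose or time. The labels do not say how many KO clones were used or whether the 3 libraries of a genotype were separate cultures, and p-values therefore rest on a library-to-library spread that may be technical.

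Members were taken by gene name from the protein-coding rows of the deposited FPKM table. They are every GALNT, GCNT, ST3GAL or ST6GALNAC gene with a number in its name, together with C1GALT1 and C1GALT1C1. This gave 37 of 58735 genes, made up of 18 GALNT genes, 2 core 1 genes, 5 GCNT genes, 6 ST3GAL genes and 6 ST6GALNAC genes. Membership itself used no threshold, but the family as a whole was chosen by measured values, the KO to WT differences in FPKM that are described below. Therefore the p-values below describe single genes and are not independent evidence about the family. FPKM are read numbers scaled to gene length and to library size, and whole reads could be recovered from them. Of the 37 members, 17 had a mean of at least 1 FPKM over the 6 libraries and entered the test, and 20 lay under this filter and are described by their reads.

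Mucin-type O-glycosylation begins in the Golgi, where GALNT enzymes transfer N-acetylgalactosamine to a serine or threonine and leave a structure called the Tn antigen. C1GALT1 adds galactose to it to form core 1, and it needs the chaperone encoded by C1GALT1C1 (COSMC) to fold. GCNT enzymes add a branching N-acetylglucosamine, and ST3GAL and ST6GALNAC enzymes cap the chain with sialic acid.

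ADGRG1 had 2.68, 2.54 and 2.58 FPKM in KO libraries, against 6.61, 6.07 and 6.87 FPKM in WT libraries. It lies on the long arm of chromosome 16, where 10 of 240 tested genes were called higher in KO and 130 lower. The part of this region in the difference was not tested. The libraries held 16955111 to 17276269 recovered reads in KO and 16410352 to 16461752 in WT. Of 8 mesenchymal markers 7 lay above a mean of 1 FPKM, and their summed level was 1560 to 1660 FPKM in KO and 1310 to 1340 FPKM in WT. Of these, 4 (LGALS1, SPARC, FN1 and PDGFRB) were called higher in KO, ZEB1 was called lower, and VIM and CDH2 were not called. Beside this stand 21.0% higher and 22.4% lower of all 12000 tested genes. PDGFRB was at 3.60 ± 0.177 FPKM in KO and 0.611 ± 0.110 FPKM in WT, ZEB1 at 3.59 ± 0.591 FPKM in KO and 7.52 ± 0.903 FPKM in WT, and VIM at 287 ± 33.1 FPKM in KO and 311 ± 25.8 FPKM in WT (SD, n = 3 each). The epithelial markers CDH1 and GRHL2 and the blood marker PTPRC had 0 reads in every library. The summed level of 6 epithelial markers was 0.901 to 1.0 FPKM in KO and 0.345 to 0.396 FPKM in WT, with CLDN4 alone at a mean of 0.906 FPKM in KO and 0.330 FPKM in WT, and that of 3 endothelial markers was 1.37 to 1.57 FPKM in KO and 0.289 to 0.379 FPKM in WT. The 4 blood markers summed to 0.104 to 0.406 FPKM in KO and 0 to 0.0729 FPKM in WT. The part of these marker differences in the results below was not tested.

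Promoter stretches are shown for 3 of the GALNT genes that were higher in KO (GALNT10, GALNT2 and GALNT14). GALNT7, a GALNT gene that was not called, is shown beside them, so that the sequences before the start sites can be compared. They are RefSeq sequences on GRCh38.p14, read 5′ to 3′ on the gene's strand and limited to bases before a start site and outside the exons annotated by GENCODE 29. Capitals mark the GC box, searched as GGGCGG and its reverse complement CCGCCC, with overlapping matches counted.
GALNT10, chr5:154190483-154190729, plus strand: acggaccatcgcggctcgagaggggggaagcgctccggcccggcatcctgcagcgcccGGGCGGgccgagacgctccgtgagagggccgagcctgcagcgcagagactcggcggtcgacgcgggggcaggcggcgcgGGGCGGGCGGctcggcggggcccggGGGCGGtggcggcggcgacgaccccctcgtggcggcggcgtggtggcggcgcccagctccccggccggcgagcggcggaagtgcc
GALNT2, chr1:230066988-230067208, plus strand: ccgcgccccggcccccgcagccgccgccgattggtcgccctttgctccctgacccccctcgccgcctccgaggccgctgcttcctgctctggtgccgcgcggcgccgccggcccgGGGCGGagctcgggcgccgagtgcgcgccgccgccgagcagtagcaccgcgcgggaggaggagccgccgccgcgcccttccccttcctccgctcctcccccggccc
GALNT14, chr2:31129641-31129890, minus strand: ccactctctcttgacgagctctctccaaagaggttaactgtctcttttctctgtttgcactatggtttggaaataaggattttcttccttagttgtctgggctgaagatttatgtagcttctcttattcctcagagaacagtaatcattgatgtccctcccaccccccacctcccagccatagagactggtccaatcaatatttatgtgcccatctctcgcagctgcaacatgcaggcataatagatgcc
GALNT7, chr4:173168561-173168752, plus strand: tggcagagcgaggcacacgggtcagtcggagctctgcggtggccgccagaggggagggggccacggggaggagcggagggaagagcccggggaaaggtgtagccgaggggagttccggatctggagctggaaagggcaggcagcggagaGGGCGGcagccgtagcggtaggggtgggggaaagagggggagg
The GALNT10 stretch held 4 GC boxes, 2 of them overlapping, that of GALNT2 1, that of GALNT7 1 and that of GALNT14 0. This GALNT14 stretch precedes the start at position 31129640. A second RefSeq start of GALNT14, at position 31138440, had 3 GC boxes in its 250 bases, all of which are annotated as exon. The box was therefore present before start sites of a gene that was called and of one that was not. Over all 35116 RefSeq promoter windows, 42.6% held a GC box in the 250 bases before the start, as did 30 of the 49 windows of the 27 members with an entry. The CCAAT box (CCAAT, both strands) was in 32.0% of all windows and in 16 of the 49, and the TATA box (TATAAA, both strands) in 10.7% of all windows and in 0 of the 49. These matches describe letters and not binding.

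The GALNT genes were the part of the pathway with the most higher transcripts in KO. Of 9 tested GALNT genes, 5 rose (GALNT18, GALNT10, GALNT16, GALNT2 and GALNT14), 0 fell and 4 did not pass. Among all 12000 tested genes 43.4% were called, 21.0% higher and 22.4% lower in KO (limma on log2(FPKM + 1) over all 6 libraries, Benjamini-Hochberg adjusted p under 0.05). Log2 fold changes below are KO minus WT on that scale, which understates changes of low genes, and ratios are of mean FPKM. The median log2 fold change of the 9 tested GALNT genes was 0.34, and that of all tested genes was -0.01.

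**Figure D1:**
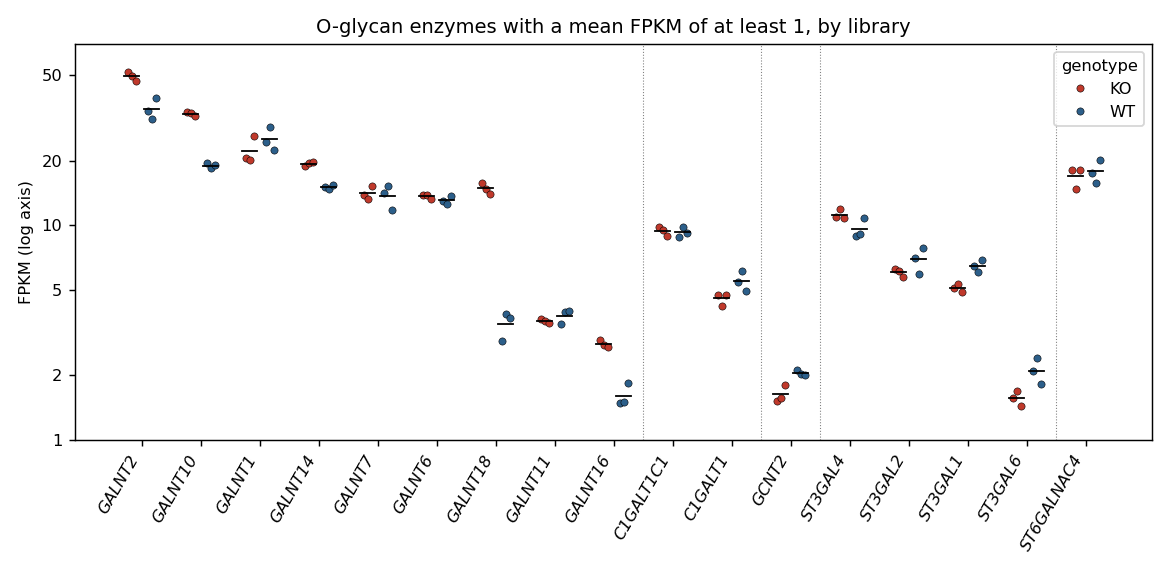
FPKM (log axis) of the 17 tested members in each library, with KO in red on the left of each pair and WT in blue, bars at the mean of 3 libraries, and dotted lines between the enzyme classes. GALNT18 shows the widest gap, with 14.0 to 15.7 FPKM in KO libraries and 2.88 to 3.86 FPKM in WT libraries.

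GALNT18 (ENSG00000110328, chromosome 11, positions 11270876 to 11622005 on GRCh38, minus strand), a GalNAc-transferase of the subfamily that also holds GALNT8, GALNT9 and GALNT17, had 15.7, 14.8 and 14.0 FPKM in KO libraries, against 2.88, 3.86 and 3.68 FPKM in WT libraries. Every KO library lay above every WT library. Its mean was 14.8 ± 0.851 FPKM in KO and 3.47 ± 0.519 FPKM in WT (SD, n = 3 each), a ratio of 4.27 (log2 fold change 1.83, SE 0.10, limma adjusted p = 2.98e-05). These values rest on 843 to 977 reads in KO libraries and 177 to 233 reads in WT libraries.

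GALNT10 (ENSG00000164574, chromosome 5, positions 154190730 to 154420984, plus strand), which prefers peptides that already carry a GalNAc, had 33.6, 33.4 and 32.3 FPKM in KO libraries, against 19.4, 18.4 and 19.1 FPKM in WT libraries. The KO libraries were 1.75-fold higher on average, and the libraries of each genotype lay close together (log2 fold change 0.77, SE 0.05, limma adjusted p = 9.78e-05). Exons of MFAP3, on the same strand, cover 1.2% of its exonic bases, and MFAP3 was at 4.93 ± 0.144 FPKM in KO and 5.82 ± 0.841 FPKM in WT.

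GALNT2 (ENSG00000143641, chromosome 1, positions 230057990 to 230282124, plus strand), a broadly acting initiating enzyme known in human and mouse for its effect on plasma lipids, was the most abundant member in both genotypes. It had 52.0, 49.5 and 47.1 FPKM in KO libraries, against 34.2, 31.3 and 39.1 FPKM in WT libraries. The genotypes did not overlap, and the ratio of means was 1.42 (log2 fold change 0.50, SE 0.09, limma adjusted p = 0.00425).

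GALNT14 and GALNT16 are relatives of GALNT2 in sequence. GALNT16 (chromosome 14) had 2.91, 2.77 and 2.70 FPKM in KO libraries, against 1.48, 1.5 and 1.83 FPKM in WT libraries, a ratio of 1.75 (log2 fold change 0.55, SE 0.08, limma adjusted p = 0.00221). GALNT14 (chromosome 2), an isoform known for O-glycosylating TRAIL death receptors, had 18.8, 19.6 and 19.7 FPKM in KO libraries, against 15.1, 14.8 and 15.4 FPKM in WT libraries, a ratio of 1.28 (log2 fold change 0.34, SE 0.05, limma adjusted p = 0.00247). Neither gene overlapped between genotypes.

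The remaining 4 tested GALNT genes did not pass. GALNT1, a widely expressed initiating enzyme, had 20.5, 20.2 and 26.0 FPKM in KO libraries, against 24.4, 28.6 and 22.4 FPKM in WT libraries (log2 fold change -0.17, limma adjusted p = 0.301). GALNT7, a follow-on enzyme that acts on glycosylated peptides, was at 14.2 ± 1.02 FPKM in KO and 13.7 ± 1.76 FPKM in WT. GALNT6 was at 13.6 ± 0.342 FPKM in KO and 13.1 ± 0.563 FPKM in WT, and GALNT11 at 3.58 ± 0.0916 FPKM in KO and 3.78 ± 0.283 FPKM in WT (SD, n = 3 each). All 4 overlapped between genotypes.

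The GALNT pool was larger in KO and its make-up differed. The 18 GALNT genes summed to 175, 171 and 174 FPKM in KO libraries, against 129, 130 and 132 FPKM in WT libraries, a ratio of 1.33. The 5 genes called higher held 68.9 ± 2.08% of that sum in KO and 56.7 ± 3.25% in WT, a difference that their choice fixes in part. GALNT18 held 8.55 ± 0.465% in KO and 2.66 ± 0.375% in WT, placing it at rank 5 in KO and rank 8 in WT. GALNT1 held 12.8 ± 1.85% in KO and 19.3 ± 2.50% in WT, and GALNT10 held 19.1 ± 0.490% in KO and 14.5 ± 0.486% in WT, so these genes stood in opposite order at ranks 2 and 3. GALNT2 ranked first in both, at 28.5 ± 1.32% in KO and 26.7 ± 2.86% in WT, and its library ranges of share overlapped. Sums and shares carry no test and use the deposited values, without the GC and length correction described below. Transcripts of GALNT1 have 36.3% GC and those of GALNT10 52.0%. The part of GC content in the sums, shares and ranks was not tested.

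**Figure D2:**
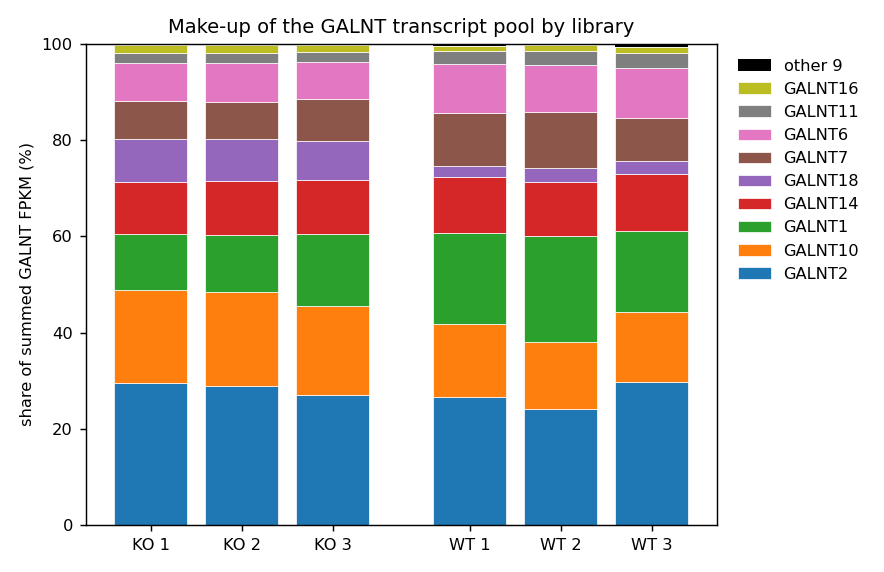
Share of the summed GALNT FPKM (percent, y axis) held by each of 9 GALNT genes in the 3 KO libraries on the left and the 3 WT libraries on the right, with the other 9 genes pooled in black. GALNT18 takes 8.04 to 8.95% in KO libraries and 2.24 to 2.96% in WT libraries.

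GC content moved with these calls. For the 11992 tested genes with a GC value, each library's signed deviation from the gene's mean over 6 libraries was set against transcript GC. The Spearman correlation was 0.46, 0.44 and 0.23 in KO libraries and -0.40, -0.62 and -0.01 in WT libraries, genes not being independent replicates. Deviations of a gene balance out over the libraries, so the opposite signs are not separate observations. The trend runs in part along genotype, so removing it can also remove a genotype difference linked to GC. Transcripts of the 5 GALNT genes called higher had 52.0% (GALNT10), 55.7% (GALNT2), 56.5% (GALNT16), 57.1% (GALNT18) and 58.8% (GALNT14) GC. The 4 that did not pass had 36.3% (GALNT1), 38.8% (GALNT7), 45.9% (GALNT11) and 52.5% (GALNT6). After the GC and length trends were removed within each library, the 5 calls held, with log2 fold changes of 1.66 for GALNT18, 0.72 for GALNT10, 0.43 for GALNT16, 0.39 for GALNT2 and 0.16 for GALNT14. The limma adjusted p of GALNT14 was then 0.0424. GALNT1 changed sign, to 0.15 (limma adjusted p = 0.176), and so did GALNT6, to -0.02 (limma adjusted p = 0.719), so neither has a direction. GALNT7 was also called higher then (log2 fold change 0.32, limma adjusted p = 0.00359), which made 6 higher and 3 lower of 17 members, beside 20.7% higher and 22.9% lower of all genes under that correction.

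**Figure D3:**
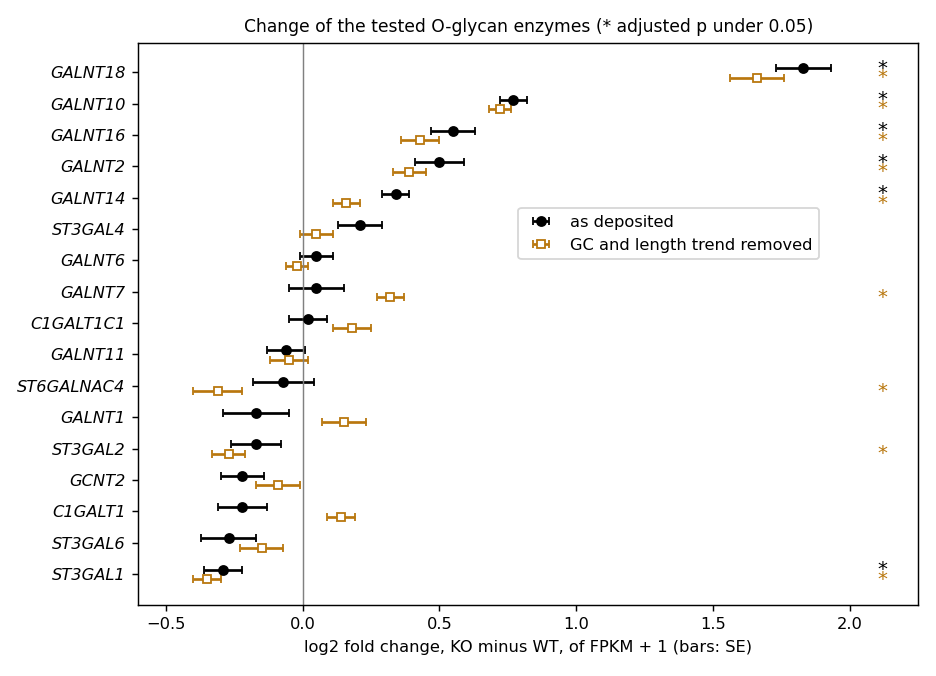
Log2 fold change of FPKM + 1, KO minus WT, for the 17 tested members, with standard errors as bars. Black circles are the values as deposited, open squares those with the GC and length trend of each library removed, and asterisks mark adjusted p under 0.05. GALNT18 stands at 1.83 as deposited and 1.66 corrected, while C1GALT1 lies at -0.22 and 0.14, on either side of 0.

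Neither core 1 gene passed the test. C1GALT1, the core 1 galactosyltransferase, had 4.73, 4.22 and 4.74 FPKM in KO libraries, against 5.45, 6.12 and 4.94 FPKM in WT libraries. The KO libraries lay below the WT libraries without overlap, and the log2 fold change was -0.22 (SE 0.09, limma adjusted p = 0.0712). Its transcript has 35.4% GC, and after the GC and length correction its log2 fold change was 0.14 (limma adjusted p = 0.076), so no direction can be given. Its chaperone C1GALT1C1 was at 9.39 ± 0.463 FPKM in KO and 9.28 ± 0.536 FPKM in WT (SD, n = 3 each), with 0.18 (limma adjusted p = 0.063) after that correction. The level of the chaperone over that of the enzyme was 2.08, 2.24 and 1.88 in KO libraries and 1.62, 1.61 and 1.86 in WT libraries. C1GALT1 lies in the first 50 Mb of chromosome 7, where 190 tested genes had a median log2 fold change of 0.30, with 96 higher and 13 lower.

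The branching enzymes were low in these cells, and GCNT1 had fewer reads in KO. GCNT1, the enzyme that converts core 1 to core 2, had 29, 19 and 27 reads in KO libraries, against 111, 83 and 83 reads in WT libraries. Its level was 0.159 ± 0.0347 FPKM in KO and 0.596 ± 0.0981 FPKM in WT, under the filter. The KO to WT ratio of reads was 0.267, with an exact 95% interval of 0.204 to 0.345 that covers counting error only. With no filter on low values, GCNT1 was called lower (log2 fold change -0.46, limma adjusted p = 0.0117), beside 7.90% of 31298 genes called lower in that fit. GCNT1 lies at 60 to 100 Mb of chromosome 9, a region of 96 tested genes with a median log2 fold change of -0.20, 11 higher and 37 lower.

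GCNT2, which makes the I-branch on poly-N-acetyllactosamine and was the one tested GCNT gene, had 1.51, 1.57 and 1.80 FPKM in KO libraries, against 2.12, 2.02 and 2.01 FPKM in WT libraries (log2 fold change -0.22, SE 0.08, limma adjusted p = 0.0634). The genotypes did not overlap, yet the gene did not pass, and its log2 fold change was -0.09 (limma adjusted p = 0.345) after the GC and length correction. GCNT3, which makes core 2 and core 4 branches, had 90 reads over the KO libraries and 125 over the WT libraries, with overlapping libraries. GCNT4, another core 2 enzyme, had 9 and GCNT7 17 reads over the KO libraries, against 21 and 24 over the WT libraries. Summed over the 5 genes, GCNT levels were 2.03, 2.29 and 2.44 FPKM in KO libraries, against 3.56, 3.13 and 3.33 FPKM in WT libraries.

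Among the 5 tested sialyltransferases 1 gene fell and 0 rose, beside 22.4% lower and 21.0% higher of all tested genes. ST3GAL1 (ENSG00000008513, chromosome 8), the main enzyme that adds sialic acid to the galactose of core 1, had 5.10, 5.30 and 4.88 FPKM in KO libraries, against 6.45, 6.02 and 6.89 FPKM in WT libraries. The KO libraries lay below the WT libraries without overlap, at a ratio of 0.790 (log2 fold change -0.29, SE 0.07, limma adjusted p = 0.0125, and -0.35 with adjusted p = 0.00187 after the GC and length correction). ST3GAL1 and the 5 GALNT genes were the 6 members called of 17, beside 43.4% of all tested genes, and 11 did not pass. Over the 17 tested members, the KO libraries lay wholly above the WT libraries in 6 and wholly below in 4, beside 26.4% and 28.3% of all tested genes. The median log2 fold change of the 17 was 0.02.

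ST3GAL4, which sialylates N-acetyllactosamine ends, had 10.9, 11.9 and 10.8 FPKM in KO libraries, against 8.88, 9.12 and 10.8 FPKM in WT libraries. Its KO libraries lay above its WT libraries by a margin smaller than the printed digits show, and it did not pass (log2 fold change 0.21, limma adjusted p = 0.083, and 0.05 with adjusted p = 0.549 after the GC and length correction). ST3GAL6, which also acts on N-acetyllactosamine, was at 1.56 ± 0.123 FPKM in KO and 2.10 ± 0.286 FPKM in WT (log2 fold change -0.27, limma adjusted p = 0.0553, and -0.15 with adjusted p = 0.173 after the GC and length correction), without overlap. Exons of DCBLD2 on the opposite strand cover 3.7% of its exonic bases, and DCBLD2 was at 94.6 ± 4.51 FPKM in KO and 101 ± 8.09 FPKM in WT. The antisense gene ST3GAL6-AS1 covers 1.7% of them and was at 0.468 ± 0.224 FPKM in KO and 0.968 ± 0.16 FPKM in WT, without overlap. The strand setting of the counting is not given in the sources used here, so reads shared by these genes cannot be assigned with certainty.

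ST3GAL2, which sialylates core 1 and gangliosides, had 6.25, 6.10 and 5.71 FPKM in KO libraries, against 7.02, 5.94 and 7.81 FPKM in WT libraries, with overlap (log2 fold change -0.17, limma adjusted p = 0.19). It was called lower after the GC and length correction (-0.27, limma adjusted p = 0.0114). It lies on the long arm of chromosome 16, where 240 tested genes had a median log2 fold change of -0.28, 10 higher and 130 lower. ST3GAL3 had 133 reads over the KO libraries and 164 over the WT libraries. ST3GAL5, the synthase of the ganglioside GM3, had 20, 26 and 32 reads in KO libraries, against 13, 15 and 11 reads in WT libraries, without overlap and under the filter, a ratio of 1.97 with an exact 95% counting interval of 1.32 to 2.97.

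ST6GALNAC4 was the one ST6GALNAC gene at an appreciable level. It adds the second sialic acid of disialylated core 1, and it had 18.0, 14.8 and 18.0 FPKM in KO libraries, against 17.6, 15.7 and 20.2 FPKM in WT libraries, with overlap (log2 fold change -0.07, limma adjusted p = 0.63). Its transcript has 63.7% GC, the highest of the tested members, and after the GC and length correction it was called lower (-0.31, limma adjusted p = 0.0236). ST6GALNAC6, an enzyme of ganglioside synthesis that also lies on chromosome 9, had 13, 21 and 9 reads in KO libraries, against 25, 22 and 28 reads in WT libraries. A same-strand transcript, AL157935.2, covers 47.0% of its exonic bases at a mean of 0.117 FPKM. ST6GALNAC1, the enzyme that makes sialyl-Tn, had 6, 2 and 2 reads in KO libraries and 0 in every WT library. At equal depth this is 3.28 times 3 reads over the WT libraries, the limit that a count of 0 allows. The KO reads are taken as exact there, so this is not a lower limit of the ratio. ST6GALNAC2, ST6GALNAC3 and ST6GALNAC5 had 2, 4 and 0 reads over the KO libraries, against 0, 1 and 1 over the WT libraries.

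The remaining GALNT genes lay far under the filter. GALNT8 had 9, 7 and 8 reads in KO libraries and 0 in every WT library, with 0.0488 ± 0.00617 FPKM in KO. At equal depth its KO reads were 7.88 times 3 reads over the WT libraries, with the KO reads taken as exact. KCNA6 shares 43.9% of its exonic bases and was listed at 0. GALNT12, a follow-on enzyme on chromosome 9, had 0, 0 and 1 reads in KO libraries, against 5, 2 and 11 reads in WT libraries, a KO to WT ratio of 0.0547 with an exact 95% counting interval of 0.00131 to 0.347. Like GCNT1, GALNT12 lies at 60 to 100 Mb of chromosome 9, where 11 of 96 tested genes were higher and 37 lower. GALNT4, another follow-on enzyme, had 19, 15 and 6 reads in KO libraries, against 41, 19 and 50 reads in WT libraries. The readthrough gene POC1B-GALNT4 shares 93.2% of the GALNT4 exonic bases, so this count depends on how shared reads were assigned. GALNT17 had 16 reads over the KO libraries and 6 over the WT libraries, and GALNT15 had 9 and 13. GALNT3, known for protecting the hormone FGF23 from cleavage, had 3 reads over the KO libraries and 4 over the WT libraries. GALNT5, GALNT9 and GALNT13 had 2, 4 and 1 reads over the KO libraries, against 0, 0 and 2 over the WT libraries. Of the 20 members under the filter, 5 had 0 reads in all WT libraries and 1 had 0 in all KO libraries. Among these, ST6GALNAC2, GALNT5 and GALNT9 had only 2, 2 and 4 reads over the KO libraries, and ST6GALNAC5 only 1 over the WT libraries. The matching share of all low genes was not counted, so no direction is read from these numbers.

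**Figure D4:**
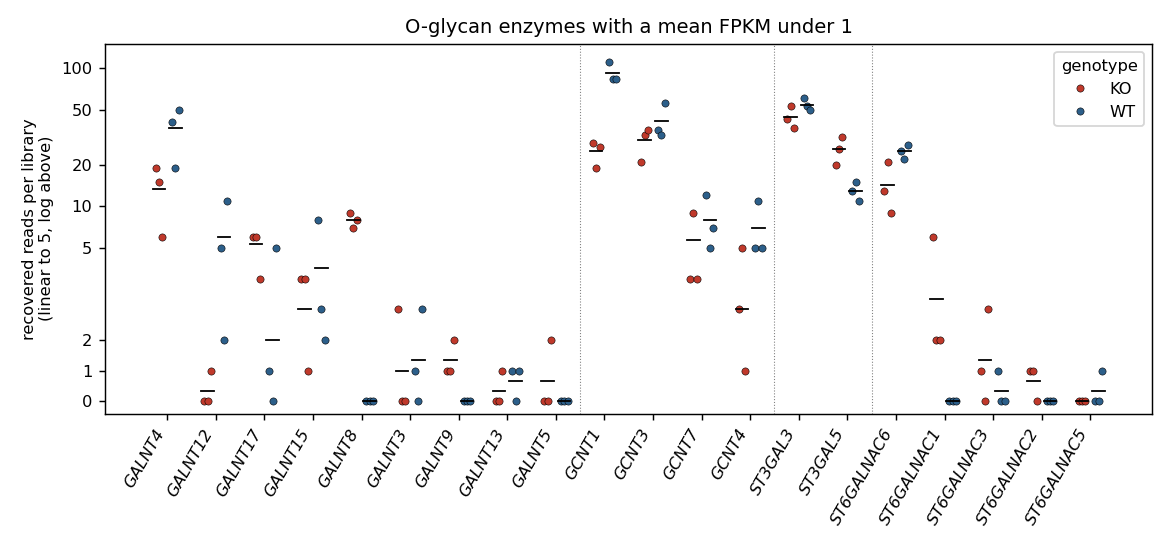
Recovered reads per library (y axis, linear to 5 and logarithmic above) for the 20 members under the filter, with KO in red on the left of each pair, WT in blue and bars at the mean of 3 libraries. GCNT1 has 19 to 29 reads in KO libraries and 83 to 111 in WT libraries, and GALNT8 has 7 to 9 in KO libraries and 0 in WT libraries.

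In order of level per length, GALNT2, GALNT10, GALNT1 and GALNT14 were the 4 most abundant members in KO, and neighbours among them did not overlap in their library ranges. In WT the order was GALNT2, GALNT1, GALNT10 and ST6GALNAC4, and GALNT10 and ST6GALNAC4 overlapped. In KO the ranges of ST6GALNAC4, GALNT18, GALNT7 and GALNT6 overlapped from neighbour to neighbour, at means of 16.9, 14.8, 14.2 and 13.6 FPKM. In WT, GALNT18 at 3.47 FPKM overlapped GALNT11 at 3.78 FPKM.

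Genes that extend the chain or feed it with sugar nucleotides held calls in both directions, as did all tested genes, of which 21.0% were higher and 22.4% lower. Of 28 genes for core 3, extension and capping, 11 were tested, 2 rose and 4 fell (median log2 fold change 0.01), and 1 rose when any library but WT 3 was left out. Leaving out 1 library gave 3 or 4 lower, and the GC and length correction gave 5 lower. CHST1, a sulfotransferase acting on galactose, was at 12.6 ± 0.342 FPKM in KO and 4.84 ± 0.264 FPKM in WT (log2 fold change 1.21, limma adjusted p = 2.49e-05). B4GALT5, known mainly as a lactosylceramide synthase, was at 32.3 ± 1.38 FPKM in KO and 54.4 ± 2.17 FPKM in WT (log2 fold change -0.74, limma adjusted p = 0.000192), and B4GALT6, of the same activity, at 4.80 ± 1.07 FPKM in KO and 10.8 ± 0.786 FPKM in WT. Of 18 tested genes for sugar nucleotide supply, 4 rose and 6 fell (median -0.08). After the GC and length correction 4 fell, and leaving out 1 library gave 4 to 7 lower. UAP1, the pyrophosphorylase that makes UDP-GlcNAc and UDP-GalNAc, fell to 28.2 ± 1.82 FPKM in KO, against 55.6 ± 4.31 FPKM in WT (log2 fold change -0.96, limma adjusted p = 0.000184). GFPT2, an entry enzyme of that pathway, was at 93.5 ± 2.37 FPKM in KO and 55.8 ± 1.53 FPKM in WT (0.73, limma adjusted p = 0.00014). Its paralog GFPT1 was at 5.26 ± 0.469 FPKM in KO and 7.32 ± 0.505 FPKM in WT (-0.41, limma adjusted p = 0.0058), a call that ended after the GC and length correction (-0.12, limma adjusted p = 0.16).

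Proteins that carry mucin-type glycans and the neighbouring O-linked pathways were mixed as well, and their counts also stand beside 43.4% of all tested genes called, 21.0% higher and 22.4% lower. Of 30 mucins and mucin-type glycoproteins 11 were tested, 5 rose and 4 fell (median 0.20). PDPN (podoplanin), whose platelet receptor binds its sialylated O-glycan, was at 9.53 ± 0.472 FPKM in KO and 5.03 ± 0.558 FPKM in WT, and CD55, a complement regulator with an O-glycosylated stalk, at 4.19 ± 0.276 FPKM in KO and 8.19 ± 0.699 FPKM in WT. DAG1, the gene of dystroglycan and one of the glycoproteins that rose, was at 36.0 ± 1.08 FPKM in KO and 21.4 ± 1.49 FPKM in WT. Of 19 tested genes for other O-linked sugars, 7 rose and 8 fell (median 0.21), and 5 fell without KO 3 or without WT 1. Of 6 tested N-glycan branching genes, 3 rose and 1 fell, while 1 rose and 1 fell without KO 2, and 1 rose and 2 fell after the GC and length correction. Of 4 tested genes among the other sialyltransferases and sialidases, 0 rose and 1 fell, CASD1, an O-acetyltransferase of sialic acid, at 1.16 ± 0.112 FPKM in KO and 2.15 ± 0.315 FPKM in WT.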

How the data were processed

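The authors deposited 1 table of FPKM values for 58735 genes in 6 libraries (3 KO, 3 WT), grouped here by their titles. Aligner, counting tool and strand setting: not given in the sources used here. Per the labels, a SMARTER mRNA-Seq kit was used. The submitters' processing notes name the builds GRCm38 and mm10, while the starts and ends of 58735 of 58735 genes equal those of human GENCODE 29, so positions are on GRCh38. The deposited gene length equals the union of GENCODE 29 exons for 58735 genes. FPKM times gene length gave whole reads for 100.0% of the values above 0 (tolerance 0.02), and 1 read in 1 kb was worth 0.0581 to 0.0602 FPKM. Within genotypes, library pairs were further apart than counting noise allows (chi-square divided by its degrees of freedom 4.92 to 16.5), so none was treated as a library deposited again, which does not show that they are separate cultures. Read intervals cover counting error only, and limits from a count of 0 take the reads of the other genotype as exact.

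FPKM are not counts, so limma 3.58.1 in R 4.3.3 (lmFit, eBayes with trend) was run on log2(FPKM + 1) over 12000 genes averaging at least 1 FPKM, with genotype as the only term, two-sided, with Benjamini-Hochberg adjustment over all of them and a threshold of 0.05. The steps were tested on simulated reads with a fixed spread and no GC trend. The libraries here do carry a GC trend, so that run does not speak for their calls. Every member was described, with up to 4 genes per other list by smallest adjusted p, of which the text names a part. GC content came from each gene's longest GENCODE transcript. Members and lists were chosen with earlier results of these data known. Alternatives were a pseudocount of 0.1, no filter, a filter at 5 FPKM, quantile normalization, GC and length correction, limma-voom on recovered reads, a replicate block and leaving out each library.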

Additional observations from a re-analysis of the deposited data

How the results depend on the processing

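The calls of GALNT2, GALNT10, GALNT14, GALNT16 and GALNT18 as higher in KO held under all 13 alternatives, except that GALNT16 lay under the filter at a mean of 5 FPKM and was not tested there. The count of members called lower, 1 in the main analysis (ST3GAL1), was less stable. It was 2 with no filter (adding GCNT1), 3 after the GC and length correction (ST3GAL1, ST3GAL2 and ST6GALNAC4, with a median log2 fold change of 0.14 over the tested members) and 4 by limma-voom on recovered reads (ST3GAL1, ST3GAL6, GCNT2 and C1GALT1), where 22.4% of all genes were called higher and 23.9% lower. Leaving out 1 library gave 1 to 3, with 2 without WT 2 and 3 without WT 3, and 5 or 6 members higher. Without WT 3, ST3GAL4 was called higher (log2 fold change 0.29, limma adjusted p = 0.0154), and C1GALT1 and ST3GAL6 were called lower. All tested genes called numbered 5207, and 3203 with the filter at 5 FPKM, where 7053 genes were tested. Leaving out 1 library gave 3789 to 5372.

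With replicate number as a block, 0 members were called lower and 5 higher, ST3GAL1 standing at an adjusted p of 0.0558 (0.00187 to 0.0478 under its other alternatives), and 3866 genes were called in all. The labels do not say whether libraries with equal numbers belong together. Deviations of libraries with equal numbers correlated at -0.07, -0.18 and -0.35, and those with unequal numbers at -0.21 to 0.37. Deviations are taken from the genotype mean, so these values cannot settle whether the numbers pair the libraries. The cause of the differences in calls between settings was not tested. At this depth 20 of 37 members lay under the filter, 9 of them with fewer than 20 reads over all libraries.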

Other observations

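Known sequence relatedness of the GALNT genes, not computed here, was considered after their values were seen and without a test. It puts GALNT2, GALNT14 and GALNT16 together, and the 3 were each called higher in KO, beside 21.0% of all tested genes. Choosing this view with the calls known fixes that result in part. The groups named in this paragraph leave out other members, among them the tested GALNT1, GALNT6 and GALNT11, which were not called. GALNT8, GALNT9, GALNT17 and GALNT18 form another branch, with 24, 4, 16 and 2745 reads over the KO libraries, against 0, 0, 6 and 632 over the WT libraries. GALNT4 and GALNT12, a further pair of relatives, had 40 and 1 reads over the KO libraries, against 110 and 18 over the WT libraries. GALNT7 and GALNT10 prefer glycosylated peptides, and GALNT10 was higher in KO while GALNT7 was called only after the GC and length correction.

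ST6GAL1, which adds α2,6-linked sialic acid to N-glycans, is named here because of its values. It had 21, 11 and 16 reads in KO libraries, against 274, 307 and 280 reads in WT libraries, or 0.103 ± 0.032 FPKM in KO and 1.87 ± 0.127 FPKM in WT (SD, n = 3 each). Its mean of 0.989 FPKM lay just under the filter, so it was outside the main test. With no filter it was called lower (log2 fold change -1.38, limma adjusted p = 0.000914), beside 7.90% of 31298 genes. In that fit 12 of the other sialyltransferases and sialidases had a value, with 1 higher and 2 lower. Beside this stand 2503 higher and 2471 lower of all 31298 genes. The higher one was ST8SIA2, with 53, 40 and 48 reads in KO libraries, against 11, 5 and 6 in WT libraries (0.45, limma adjusted p = 0.00599).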
